A study of Mus musculus with 4 samples.

Results

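The genes described are 8 chemokine receptors of the mouse, Ccr1, Ccr2, Ccr3, Ccr7, Ccrl2, Cx3cr1, Cxcr2 and Cxcr4, out of 22180 genes with a probe set of their own. Each was read from probe sets annotated with that gene symbol and no other, and where a gene has several the brightest on average is taken. All 8 had exactly 1 such probe set, and all 8 passed the filter on dim genes, which left 14652 genes. The cells were dendritic cells grown from the bone marrow of C57BL/6 mice and harvested on day 7. Of the 4 arrays, 2 carried RNA of cells exposed for 2 h to sulforaphane at 0.3 µM, a plant isothiocyanate known to activate NRF2, in the solvent DMSO, and 2 carried RNA of cells exposed to DMSO alone. Every sample was then given 100 ng/ml of LPS from E. coli O111:B4, a bacterial ligand of TLR4, for 1 h, so differences are between LPS-stimulated cells. The labels do not tell whether replicates are different animals or cultures. If they are not, the p-values describe technical spread alone.

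Chemokine receptors are G protein-coupled receptors with a serpentine membrane domain that guide leukocytes along gradients of chemokines, mainly through Gi proteins, PI3-kinase gamma and Rac. Ccr1 and Ccr2 are receptors of inflammatory chemokines on monocytes and on immature dendritic cells. Ccr7 is the receptor that takes maturing dendritic cells into lymphatic vessels and lymph nodes, and maturation through TLR ligands is known to raise it while inflammatory receptors are lost. Ccrl2 is an atypical receptor that binds chemerin and does not signal like the classical receptors. Cx3cr1 binds fractalkine and marks monocytes and their descendants, Cxcr2 is the main chemoattractant receptor of neutrophils, Ccr3 that of eosinophils, and Cxcr4 keeps haematopoietic cells in the marrow through Cxcl12.

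Transcripts of 4 receptors, Ccr1, Ccr2, Ccrl2 and Cx3cr1, were lower on both sulforaphane arrays than on both DMSO arrays, by between 1.29-fold and 1.73-fold. Those of Ccr7 and Ccr3 differed by less than 0.10 on the log2 scale, with groups that overlapped. Cxcr2 was also in the overlapping set, and Cxcr4 was slightly higher. None of the 8 passed the threshold, an adjusted p of 0.05 by limma with Benjamini-Hochberg adjustment over all genes tested, which 0.13% of all genes passed (19 of 14652). Before adjustment, 4 of 8 receptors had a p under 0.05, all lower, beside 5.87% of all genes in that direction, and in the higher direction by 0 receptors beside 7.09%. Groups without overlap were seen for 5 of 8 receptors (43.6% of all genes), 4 lower (19.5%) and 1 higher (24%). A difference of at least 1.5-fold without overlap was found for 2 receptors, both lower (1.49% of all genes). The median difference of the 8 was -0.29, against 0.02 for all genes tested. The receptors were chosen with earlier results of these data known, so these comparisons are a description and not a test of an excess. The median of the receptors was -0.10 without DMSO replicate 2 and -0.38 without DMSO replicate 1. An exact permutation test of 2 arrays against 2 cannot give a two-sided p below 0.333.

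The windows upstream of the 4 receptors that were lower are shown because these transcripts moved in one direction on the same arrays. They are the 250 bases before the annotated start in RefSeq (GRCm38.p6). Windows were available for 7 of the 8 receptors, all but Ccr7, which was not searched. Positions are chr9:123968693-123968942 (minus strand) for Ccr1, chr9:120068297-120068546 (minus strand) for Cx3cr1, chr9:124101933-124102182 (plus strand) for Ccr2 and chr9:111057519-111057768 (minus strand) for the first of the windows of Ccrl2. Letters in capitals mark matches, on either strand, to TGACNNNGC (the core of the antioxidant response element, which NRF2 binds), TGANTCA (AP-1), GGG and CC with any 5 bases between them (an NF-kB-like pattern), a pair of GAAA with any 2 bases between them (the core of the interferon response element) or GAGGAA (the core of the PU.1 site).
Ccr1: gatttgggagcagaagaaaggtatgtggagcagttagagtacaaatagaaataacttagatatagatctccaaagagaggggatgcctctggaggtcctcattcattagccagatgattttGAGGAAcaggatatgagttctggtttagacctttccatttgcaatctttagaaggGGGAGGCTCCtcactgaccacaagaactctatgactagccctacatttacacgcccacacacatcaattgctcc
Cx3cr1: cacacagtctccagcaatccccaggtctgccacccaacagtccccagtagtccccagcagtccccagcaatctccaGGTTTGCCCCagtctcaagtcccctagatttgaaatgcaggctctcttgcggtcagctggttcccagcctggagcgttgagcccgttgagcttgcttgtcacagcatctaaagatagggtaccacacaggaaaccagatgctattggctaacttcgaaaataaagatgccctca
Ccr2: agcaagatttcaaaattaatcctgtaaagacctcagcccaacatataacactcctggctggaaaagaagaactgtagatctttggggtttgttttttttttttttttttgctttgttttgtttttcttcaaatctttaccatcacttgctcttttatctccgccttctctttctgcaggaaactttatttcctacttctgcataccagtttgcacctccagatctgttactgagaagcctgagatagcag
Ccrl2: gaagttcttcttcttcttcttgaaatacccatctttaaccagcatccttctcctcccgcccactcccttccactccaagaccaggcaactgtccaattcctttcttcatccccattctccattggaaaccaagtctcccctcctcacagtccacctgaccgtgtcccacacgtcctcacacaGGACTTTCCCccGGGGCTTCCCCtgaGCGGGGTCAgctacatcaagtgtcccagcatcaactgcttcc
In the window of Ccr1 there was a PU.1 core and an NF-kB-like match. That of Cx3cr1 had an NF-kB-like match, and that of Ccr2 had none of the 5 patterns. The Ccrl2 window held GGACTTTCCC with its first base at position -68 from the annotated start, then the overlapping matches GGGGCTTCCC and GGGCTTCCCC at -56 and -55, all of the NF-kB-like pattern, and an antioxidant response element core at -42. The other windows of Ccrl2, which begin at other annotated starts, held no match. In windows of 300 bases (250 before and 50 after the start), the NF-kB-like pattern was in 50.8% of all 32851 windows and in those of 5 of the 7 receptors, 3 of them lower after sulforaphane (Ccr1, Cx3cr1 and Ccrl2). The antioxidant response element core was in 12.4% of all windows and in those of Ccrl2 and Ccr3, and GAGGAA in 28.3% and in those of Ccr1, Ccr3 and Cxcr2. AP-1 matched 7.81% of windows and only Ccr3 among the 7, and the interferon pattern 3.44% and none of the 7. These shares count windows, whereas receptors are counted once if any of their windows matched, and the 7 receptors had 9 windows. A match is a description of letters and not of a bound site.

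Ccr1, the receptor of Ccl3, Ccl5 and related inflammatory chemokines, is encoded on chromosome 9 (probe set 17532569). Its log2 values were 8.86 and 8.76 on the DMSO arrays and 8.19 and 8.08 on the sulforaphane arrays. Replicates lay within 0.11 of each other in both groups, and a gap of 0.57 separated the groups. The difference was -0.67 ± 0.11 (SE, n = 2 per group; 95% interval -0.95 to -0.40), or 1.60-fold lower, with an adjusted p of 0.0952 by limma. It missed the threshold, but passed it when only genes above the 60th percentile were tested (limma adjusted p = 0.04996) and with an intensity trend in the variance (limma adjusted p = 0.0151). With an array left out the difference ran from -0.73 to -0.62. In rank by unadjusted p over all genes Ccr1 stood at 148, the first of the 8 receptors.

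Cx3cr1, the fractalkine receptor, also lies on chromosome 9 (probe set 17532268) and had a low signal. Its values were 4.91 and 5.05 with DMSO and 4.37 and 4.01 with sulforaphane. Both treated arrays were below both controls, and the treated arrays differed from each other by 0.36. The difference of -0.79 ± 0.15 (SE, n = 2 per group; 95% interval -1.16 to -0.41), 1.73-fold lower, was the largest of the 8 receptors with all 4 arrays and had an adjusted p of 0.126 by limma. Ccr1 differed more without DMSO replicate 2 (-0.73 against -0.72) and without sulforaphane replicate 2 (-0.62 against -0.61). Leaving out sulforaphane replicate 1 gave -0.97, and leaving out sulforaphane replicate 2 gave -0.61. Its ligand Cx3cl1 had values of 6.53 and 6.54 with DMSO and 5.96 and 6.72 with sulforaphane, so the groups overlapped (-0.20, 95% interval -0.79 to 0.40).

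**Figure D1:**
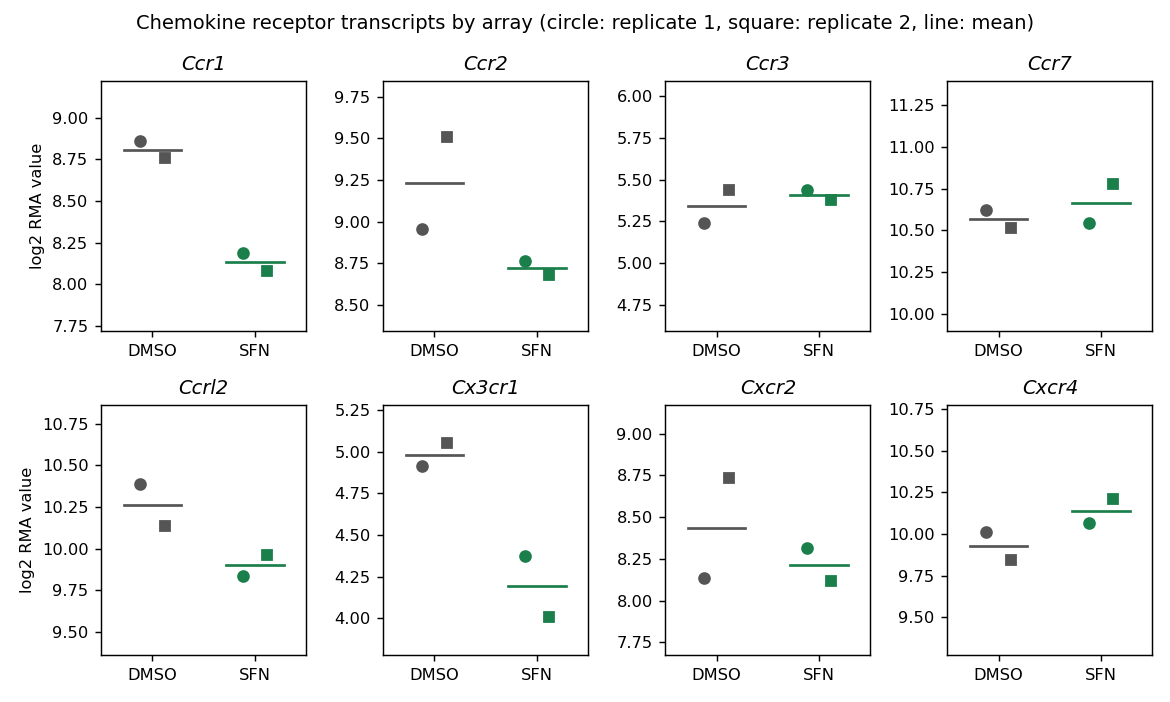
Log2 RMA values of the 8 receptors on each array, with DMSO in grey and sulforaphane (SFN) in green. Circles are replicate 1, squares replicate 2 and lines the mean of 2 arrays, and every panel spans the same range of log2 units around its own centre. Ccr1 shows the tightest replicates with a gap of 0.57, while the DMSO arrays of Ccr2 and Cxcr2 lie 0.55 and 0.59 apart.

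Ccr2, the receptor of Ccl2 and Ccl7 that brings monocytes out of the marrow and into inflamed tissue (probe set 17523650), had values of 8.95 and 9.51 with DMSO and 8.76 and 8.68 with sulforaphane. The treated arrays were close together and below both controls, but the controls lay 0.55 apart, more than the mean difference between the groups. That difference was -0.51 ± 0.19 (SE, n = 2 per group; 95% interval -0.97 to -0.04), with an adjusted p of 0.353 by limma. It was -0.78 without DMSO replicate 1 and -0.23 without DMSO replicate 2, so its size rests on which control is used.

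Ccrl2, the chemerin-binding receptor that LPS is known to induce in myeloid cells (probe set 17531705), is encoded on chromosome 9 too. Its values were 10.39 and 10.14 with DMSO and 9.84 and 9.96 with sulforaphane. Both treated arrays were lower, with 0.17 between the nearest arrays of the groups and 0.25 between the controls. The difference was -0.36 ± 0.13 (SE, n = 2 per group; 95% interval -0.68 to -0.04), 1.29-fold lower, with an adjusted p of 0.334 by limma. It ran from -0.49 without DMSO replicate 2 to -0.24 without DMSO replicate 1.

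Ccr7, the homing receptor of mature dendritic cells on chromosome 11 (probe set 17268972), had values of 10.62 and 10.51 with DMSO and 10.55 and 10.77 with sulforaphane. The arrays of the groups interleaved. Its difference was 0.09 ± 0.13 (SE, n = 2 per group; 95% interval -0.22 to 0.40; adjusted p = 0.833 by limma), and turned to -0.02 without sulforaphane replicate 2. The interval leaves room for a rise of up to 0.40 or a fall of up to 0.22 on the log2 scale, and a p above the threshold does not show that the level was the same. Its ligands Ccl19 and Ccl21a were not matched to a probe set of 1 symbol and were not analysed here.

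**Figure D2:**
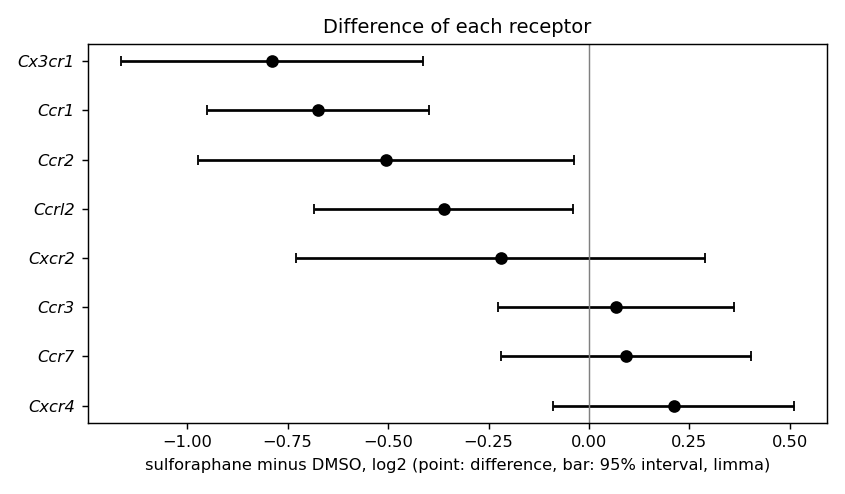
Difference between sulforaphane and DMSO for each receptor on the log2 scale. Points are differences and bars 95% intervals from limma on 2 arrays per group. The intervals of Cx3cr1, Ccr1, Ccr2 and Ccrl2 lie below 0 before adjustment for the number of genes, those of Ccr2 and Ccrl2 ending at -0.04, and those of the other 4 hold 0.

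The remaining CC receptor, Ccr3, the eotaxin receptor (probe set 17523646), had values of 5.24 and 5.44 with DMSO and 5.44 and 5.38 with sulforaphane. Both treated arrays lay inside the range of the controls. The difference was 0.07 ± 0.12 (SE, n = 2 per group; 95% interval -0.23 to 0.36; adjusted p = 0.876 by limma), and its sign turned with scaling, to -0.0037 after a second quantile normalization, and to -0.03 without DMSO replicate 1.

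Among the CXC receptors, both on chromosome 1, Cxcr2 (probe set 17214142) had values of 8.14 and 8.73 with DMSO and 8.32 and 8.12 with sulforaphane. The controls were 0.59 apart and took in 1 of the treated arrays. The difference was -0.22 ± 0.21 (SE, n = 2 per group; 95% interval -0.73 to 0.29; adjusted p = 0.734 by limma), -0.52 without DMSO replicate 1 and 0.08 without DMSO replicate 2. For Ccr2 and Cxcr2 alike, DMSO replicate 1 was the lower control.

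Cxcr4, the Cxcl12 receptor (probe set 17226593), had values of 10.01 and 9.84 with DMSO and 10.07 and 10.21 with sulforaphane. It was the one receptor with both treated arrays above both controls, by a gap of 0.05. The difference was 0.21 ± 0.12 (SE, n = 2 per group; 95% interval -0.09 to 0.51; adjusted p = 0.536 by limma), 0.12 without DMSO replicate 2 and 0.30 without DMSO replicate 1. The separation was lost after a second quantile normalization and after centring the arrays on the median of the genes tested, an alternative chosen after seeing the data, while the difference kept its sign.

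**Figure D3:**
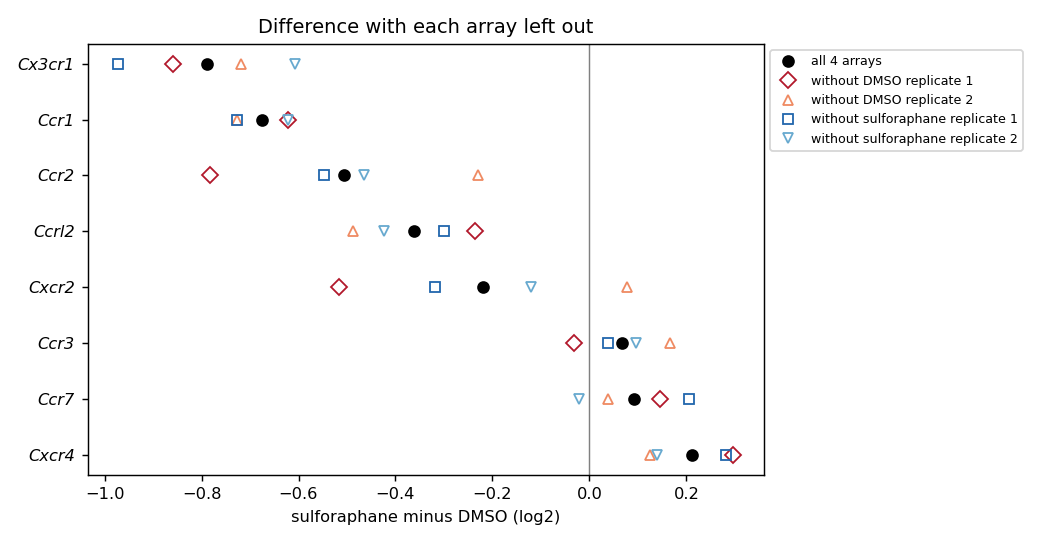
Difference between sulforaphane and DMSO on the log2 scale for each receptor with all 4 arrays (filled circles) and with each array left out (open symbols). Cx3cr1, Ccr1, Ccr2 and Ccrl2 stay below 0 and Cxcr4 above 0 in all of them, whereas Cxcr2, Ccr3 and Ccr7 cross 0, and Ccr2 spreads from -0.78 to -0.23.

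DMSO replicate 1 stood apart from the other arrays, with an interquartile range of 3.41 on the log2 scale against 3.61 to 3.62. The log2 difference between replicates had an SD over genes that within DMSO was 0.261, within sulforaphane 0.209. Between the groups it was 0.266 and 0.275 for DMSO replicate 2 against sulforaphane replicates 1 and 2, and 0.317 and 0.311 for DMSO replicate 1. With any 1 array left out, 0 genes passed the limma threshold, when 1036 to 2850 had an unadjusted p under 0.05.

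Ccr1, Ccr3 and Ccr2 are neighbours on chromosome 9 in the RefSeq annotation, in the order Ccr9, Fyco1, Cxcr6, Xcr1, Ccr1, Ccr1l1, Ccr3 and Ccr2 of protein-coding genes. Within that row, Ccr1 and Ccr2 were lower without overlap, as was Xcr1, close to the filter and by a small difference (-0.07), while Ccr3 between them differed by 0.07 and Fyco1, a gene of vesicle transport, by -0.16 with overlapping groups. Ccr1l1, a close relative of Ccr1, was below the filter on dim genes. Its values were 2.99 and 3.06 with DMSO and 2.15 and 2.42 with sulforaphane, near the floor of the arrays, with a difference of -0.74 when no filter was used. It was named after its values were seen, and whether its probes also take up Ccr1 RNA was not tested.

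The other receptors of chemokines and of chemerin were mostly below the filter. Of 18 listed genes 17 were matched and 7 passed the filter, with 10 below it at mean log2 values of 2.28 to 2.90. Those 7 lay below 0 (median -0.15), 4 without overlap, beside 19.5% of all genes lower without overlap, and 0 passed the threshold. Over all 17, with no filter, the median was -0.06. An unadjusted p under 0.05 was found in 2 of the 7, both lower, beside 5.87% of all genes in that direction. Cmklr1, the signalling receptor of chemerin, the ligand that Ccrl2 also binds, had the smallest p of the 7. It had values of 7.86 and 7.93 with DMSO and 7.54 and 7.44 with sulforaphane, a difference of -0.41 ± 0.11 (SE, n = 2 per group; limma adjusted p = 0.222). Gpr1, a further receptor of chemerin, was below the filter, with 2.78 and 2.73 against 2.80 and 2.61 and overlapping groups. Cxcr5 (-0.28), Ccr4 (-0.29) and Cxcr1 (-0.15), with group means of 3.01 to 3.67, were close to the filter at 2.91. The median of the list ran from -0.24 to -0.06 with an array left out.

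Ligands of the 8 receptors moved in both directions. Of 21 listed, 18 were matched and 15 tested, 8 above and 7 below 0 (median 0.01), and 0 passed the threshold. Without overlap, 3 were higher and 2 lower, beside 24% and 19.5% of all genes. At an unadjusted p under 0.05 there were 2 higher and 2 lower, beside 7.09% and 5.87% of all genes. The median was 0.13 without sulforaphane replicate 1. Ccl2, the main ligand of Ccr2, had values of 9.90 and 9.80 with DMSO and 9.14 and 9.32 with sulforaphane (-0.62 ± 0.12 SE, limma adjusted p = 0.125). Ccl7, which binds Ccr1, Ccr2 and Ccr3, had 7.29 and 6.59 against 5.81 and 5.86 (-1.11 ± 0.23 SE, limma adjusted p = 0.147). So the Ccr2 transcript and those of both of its tested ligands were lower on both treated arrays. The other tested ligands of Ccr1, named after their values were seen, did not separate the groups: Ccl3 differed by 0.01, Ccl5 by 0.09, Ccl6 by -0.02 and Ccl9 by -0.03. Of the 5 tested CXC chemokines that bind Cxcr2, Cxcl2 and Cxcl5 had an unadjusted p under 0.05, both higher. Cxcl2, a neutrophil attractant that LPS induces, had 10.70 and 10.86 with DMSO and 11.17 and 11.24 with sulforaphane (0.42 ± 0.12 SE, limma adjusted p = 0.224). Cxcl5 had 4.45 and 4.12 against 4.74 and 4.67 (0.42 ± 0.14 SE, limma adjusted p = 0.308). Ppbp (0.34), Cxcl3 (0.06) and Cxcl1 (-0.05), named as the rest of these chemokines after their values were seen, completed the 5, Ppbp without overlap and Cxcl3 and Cxcl1 with it. For Cxcr4, the ligand Cxcl12 was near the filter (3.09 with DMSO and 3.10 with sulforaphane) and Mif, which also binds it, differed by 0.08, both with overlapping groups.

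**Figure D4:**
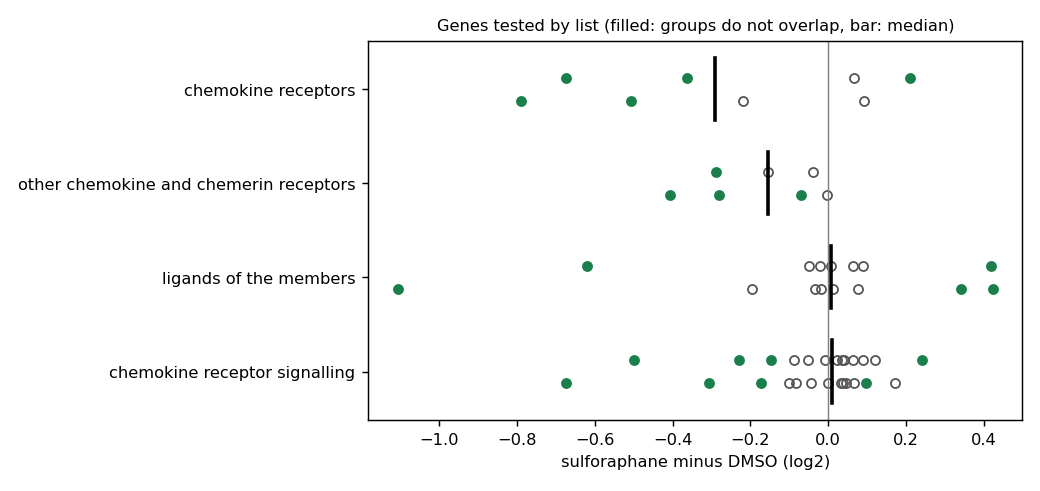
Differences between sulforaphane and DMSO on the log2 scale for the tested genes of the 8 receptors, the 7 other receptors, 15 ligands and 26 signalling genes. Each point is a gene, filled where the groups do not overlap, and bars are medians (-0.29, -0.15, 0.01 and 0.01). Among the ligands Ccl7 and Ccl2 lie farthest to the left.

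Genes that act downstream of these receptors were centred near 0. Of 26 tested genes (28 listed), 13 lay above and 13 below 0, with a median of 0.01, and 0 passed the threshold. Without overlap, 6 were lower and 2 higher, beside 19.5% and 24% of all genes. An unadjusted p under 0.05 was found in 3, all lower, beside 5.87% of all genes in that direction. Gnai2, the most used G protein of these receptors in leukocytes (0.06), Pik3cg, their PI3-kinase (-0.10), and Dock2, a Rac activator (0.04), were named for their place in the pathway after their values were seen, and all had overlapping groups. Those with the smallest p were Plcb3, a phospholipase C (-0.50 ± 0.13 SE, limma adjusted p = 0.195), Rgs16, which shortens G protein signals (-0.68 ± 0.17 SE, limma adjusted p = 0.203), Pik3r5, the regulatory subunit of PI3-kinase gamma (-0.31 ± 0.11 SE, limma adjusted p = 0.338), and Rgs14 (-0.23 ± 0.11 SE, limma adjusted p = 0.457). Each had both treated arrays below both controls. Rgs16 had a low signal, with 3.12 and 2.90 on the sulforaphane arrays, close to the filter at 2.91.

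Chemokine receptors mark cell types, so markers of the cells such a culture can hold were read on the same arrays. All 15 matched dendritic cell markers passed the filter, among them Itgax (CD11c) at 11.26 with DMSO and 11.33 with sulforaphane and H2-Ab1, an MHC class II chain, at 11.55 and 11.81, named as a check of the label. All 14 matched macrophage and monocyte markers and all 13 neutrophil markers also passed it, and 12 of the neutrophil markers had means above 8. Eosinophil markers reached 11.05 (7 of 7 matched passed) and mast cell and basophil markers 9.98 (9 of 12). T and NK cell markers passed in 6 of 10 matched and B cell markers in 4 of 7. RNA that marks other myeloid cells was thus present in the samples labelled dendritic cells. In such bulk samples, fewer cells of a type and less RNA per cell cannot be told apart.

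Of 15 tested dendritic cell markers, 9 were lower and 3 higher without overlap, beside 19.5% and 24% of all genes. The median was -0.34, and 0 passed the threshold. An unadjusted p under 0.05 was found in 9, all lower, beside 5.87% of all genes in that direction. The mean log2 level of the list was 8.26 and 8.36 on the DMSO arrays and 8.02 and 8.06 on the sulforaphane arrays. Irf4, a transcription factor of dendritic cells, had the smallest p (-0.87, limma adjusted p = 0.0565). Of 14 markers of macrophages and monocytes, the cells that Ccr2 and Cx3cr1 mark, 6 were lower and 0 higher without overlap (19.5% and 24% of all genes). The threshold was passed by 0, and 2 had an unadjusted p under 0.05, both lower (5.87% of all genes). The median of the 14 was -0.12, and -0.06 without sulforaphane replicate 2. List means were 8.85 and 8.92 with DMSO against 8.72 and 8.73 with sulforaphane. Vcam1, an adhesion molecule, had the smallest p (-0.78, limma adjusted p = 0.0600). The means of both lists were lower on the arrays on which Ccr1, Ccr2, Ccrl2 and Cx3cr1 were lower. So were those of the mast cell and basophil list and of the B cell list. The B cell list had 4 tested genes, of which Cd79a, Pax5 and Cd79b had low group means of 3.09 to 4.27, with the filter at 2.91. The part of these lists in the receptor differences was not tested.

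Of 13 markers of neutrophils, the cells that Cxcr2 marks, 1 was higher and 2 lower without overlap, beside 24% and 19.5% of all genes. Their median was 0.03. That median was -0.03 without DMSO replicate 1 and 0.09 without DMSO replicate 2. Their list means were 9.54 and 9.78 with DMSO and 9.74 and 9.58 with sulforaphane, so that DMSO replicate 1 was lowest and DMSO replicate 2 highest. Among the arrays of Cxcr2, DMSO replicate 2 was also the highest, but the lowest was sulforaphane replicate 2. Cebpe, a granulocyte transcription factor, had the smallest p of that list (-0.40, limma adjusted p = 0.205). For Ccr3, which eosinophils and mast cells carry, eosinophil markers had a median of -0.06, led by Siglecf (-0.42, limma adjusted p = 0.221). That median was -0.26 when sulforaphane replicate 2 was left out and 0.17 when sulforaphane replicate 1 was. Of the 7 eosinophil markers tested, 3 were lower and 1 higher without overlap (19.5% and 24% of all genes). An unadjusted p under 0.05 was found in 2, both lower (5.87% of all genes). Mast cell and basophil markers had a median of -0.07, led by Hdc, the histamine-forming enzyme (-0.61, limma adjusted p = 0.153), and -0.22 without sulforaphane replicate 2. Of the 9 tested, 8 lay below 0, and 5 were lower and 0 higher without overlap (19.5% and 24% of all genes). Those with an unadjusted p under 0.05 numbered 2, both lower (5.87% of all genes). Eosinophil list means were 7.65 and 7.69 against 7.50 and 7.65, and mast cell list means 6.85 and 6.76 against 6.54 and 6.68. T and NK cell markers had a median of -0.01, led by Il7r (0.38, limma adjusted p = 0.417), with list means of 4.74 and 4.78 against 4.76 and 4.81. Of the 6 tested, 2 were lower and 1 higher without overlap (19.5% and 24% of all genes). B cell markers had a median of -0.25 over 4 genes (-0.49 and -0.12 when sulforaphane replicate 2 or 1 was left out, and -0.10 with no filter), led by Cd79a (-0.42, limma adjusted p = 0.328), with list means of 4.78 and 4.88 against 4.41 and 4.74. Without overlap, 2 of the 4 were lower and 0 higher (19.5% and 24% of all genes). The part of these lists in the receptor values was not tested.

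**Figure D5:**
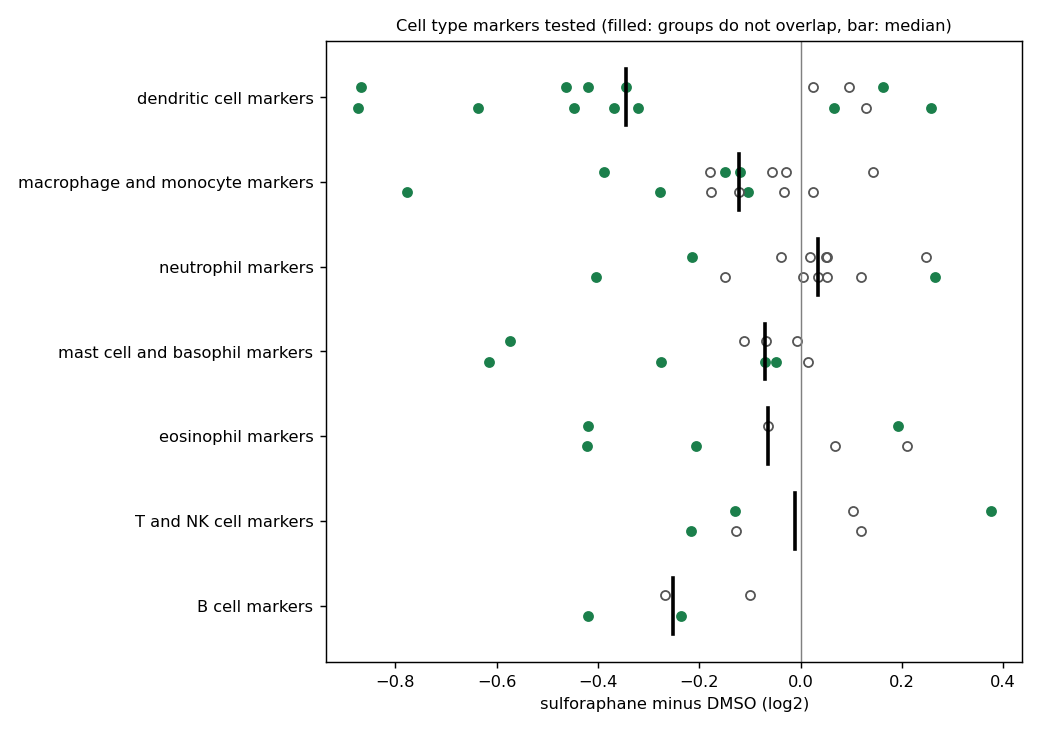
Differences between sulforaphane and DMSO on the log2 scale for the tested markers of 7 cell types. Each point is a gene, filled where the groups do not overlap, and bars are medians. Dendritic cell markers are spread widest to the left, with a median of -0.34, and neutrophil markers are centred at 0.03.

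For the 4 receptors with an unadjusted p under 0.05, the genes with the nearest profile were sought by Euclidean distance over the 4 arrays after subtracting each gene's mean. The nearest to Ccr1 were Mefv, which encodes pyrin (distance 0.0157, difference -0.67), and Ly6c1 (0.0276, difference -0.69), the latter with a mean of 2.64 on the sulforaphane arrays, below the value used for the filter. Nearest to Cx3cr1 were Gem, a small GTPase (0.0630, difference -0.75), and Ffar2, a receptor of short-chain fatty acids (0.0724, difference -0.85). Ccr2 had 5430427O19Rik (0.0835, difference -0.56) and the keratin Krt7 (0.109, difference -0.40), and Ccrl2 had Smtnl2 (0.0189, difference -0.36) and Elovl3 (0.0354, difference -0.36). Elovl3, with 2.75 on the sulforaphane arrays, was below the value used for the filter there too, and Smtnl2, with 2.93, close to it. Krt7 also had a low signal, with means of 3.56 with DMSO and 3.16 with sulforaphane. Within 0.2, a wider distance than any of these, lay 525 genes around Ccrl2, 73 around Ccr1, 48 around Ccr2 and 11 around Cx3cr1.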

How the data were processed

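RNA of 2 DMSO and 2 sulforaphane samples was hybridised to Affymetrix arrays, per the labels' protocols. The deposited table holds log2 values made by the authors with RMA (background subtraction, quantile normalization and summary over probes), using R 2.15.1 according to the labels and per the submitters' processing notes. The log base is taken to be 2, since RMA gives that base and values ran from 1.24 to 13.05. Any filter, and the level of summary, is not given in the sources used here. RMA levels depend on the probes, so they are compared between arrays and not between genes. Of 41345 probe sets, 23521 had 1 symbol, 1814 had several and 16010 were not listed in the platform annotation. By Entrez identifier 23328 were matched to RefSeq names (GRCm38.p6), and 0 symbols changed.

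Genes whose mean exceeded the 40th percentile over all probe sets (2.91) were tested with limma 3.58.1 in R 4.3.3, with 2 residual and 4.02 prior degrees of freedom and no replicate block, on all 4 arrays. The procedure was tested on simulated data. The replicate numbers were not taken as pairs, since the labels name no shared source and the correlation of same-numbered deviations over genes was -0.08. The receptors and gene lists were chosen with earlier results of these data known. The genes named were every receptor, up to 4 genes of each pathway list and 1 of each marker list by smallest unadjusted p, and the 2 nearest profiles, with other choices stated. The alternatives were other filters, normalizations and probe set choices, a replicate block, eBayes with a trend or robust, and each array left out.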

Additional observations from a re-analysis of the deposited data

How the results depend on the processing

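Of the 8 receptors, 0 passed the threshold with any array left out, without an intensity filter, with either centring, a second quantile normalization, other choices of probe sets, the replicate block or robust estimation, and 1 of 8, Ccr1, passed with the 60th percentile filter (-0.67, adjusted p = 0.04996 by limma) and with the intensity trend (-0.67, adjusted p = 0.0151). Ccr1, Ccr2, Ccrl2 and Cx3cr1 kept a negative and Cxcr4 a positive difference under all alternatives run, while Ccr3 turned to -0.0037 with a second quantile normalization. With each array left out in turn, Ccr3 ran from -0.031 to 0.17, Cxcr2 from -0.52 to 0.077 and Ccr7 from -0.022 to 0.21, and the receptors without overlap numbered 5 to 8, a count that is larger by construction with 1 array in a group. The cause of the reversals was not tested.

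The genes past the threshold numbered 19 and went to 138 with the 60th percentile filter, 106 (34 higher, 72 lower) with a second quantile normalization, 34 with the mean of probe sets, 249 with the intensity trend, 143 (41 higher, 102 lower) when centred on the median of the genes tested (chosen after seeing the data), and from 0 to 0 with an array left out. With the 60th percentile filter 10584 genes were tested, against 14652, and 1709 had an unadjusted p under 0.05, against 1899. The SE of the Ccr1 difference was 0.104 there, against 0.113. The cause of these changes in the number past the threshold was not tested for any of the alternatives. With the replicate block 8 genes passed, and no receptor changed its call. Arrays of 2 samples per group limit the precision of every difference.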
